A study of Mus musculus with 7 samples.

Results

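Lysosomal genes were examined in flow-sorted mouse glioma cells after 1 or 2 rounds of grafting into NOD/SCID hosts. The set held 47 listed genes in 7 roles: cathepsins and legumain, glycosidases, sulfatases, proteins of lipid and cholesterol handling, membrane proteins, other soluble proteins, and transcription factors of the Tfeb family. A gene was found where the platform annotation gave a probe this single symbol, and its brightest probe, by the mean of the 7 arrays, stood for it. This gave values for 46 of the 47 listed genes, out of 18193 genes with such a probe; Cd63 had no probe that met the rule. Ctsk, a collagen-cleaving cathepsin, had values between 2.90 and 3.77 on the 7 arrays and was left out by the filter on dim probes (a mean below the log2 value 3.99), so 45 lysosomal genes were among the 14453 genes tested.

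All samples were EGFP-positive glioma cells, dissociated with trypsin and sorted by flow cytometry, of C57/Bl6 background with PDGF-B/EGFP overexpression, in which the oncogene and the fluorescent protein are made from a single bicistronic transcript. Secondary gliomas (n = 4) grew in NOD/SCID mice that had received cells of an early onset, low grade primary glioma, and tertiary gliomas (n = 3) grew in NOD/SCID mice that had received cells of a secondary glioma. NOD/SCID hosts lack functional B and T lymphocytes but keep myeloid cells. The labels call the samples biological replicates but name neither the host's age nor the primary tumour behind each, so p-values measure only the spread between these samples, some of which may share an origin.

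Lysosomes are acidic compartments in which soluble hydrolases break down proteins, glycans and lipids delivered by endocytosis, phagocytosis and autophagy. Cathepsins are their proteases, glycosidases and sulfatases trim sugar chains step by step, and heavily glycosylated membrane proteins line the compartment and export its products. The factors Tfeb, Tfe3 and Mitf bind E-box motifs in promoters of many lysosomal genes. In brain, microglia and macrophages are rich in cathepsins, Cd68 and Laptm5, while most hydrolases are made by every cell type.

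RNA of genes used as markers of other cell types was present in the sorted samples, and some of these markers differed between the groups. Of 19 markers of microglia and macrophages, which hold no gene of the lysosomal set, 19 fell in tertiary gliomas, with a median log2 fold change of -4.26; without single samples the count was between 17 and 19. The mean log2 level of the 19 ranged from 9.84 to 10.7 in secondary and from 5.64 to 6.51 in tertiary gliomas. In tertiary gliomas the defining markers Itgam and Adgre1 had means of 3.03 and 3.52, below the dim filter. Both passed that filter only through the secondary samples, and both count among the 19 and in their median. In the same tertiary group Fcer1g, the shared immunoglobulin receptor chain, was at 6.67 and the complement subunit C1qc at 7.45. The leukocyte phosphatase Ptprc had a log2 fold change of -5.37 ± 0.32 (SE), or -4.27 as the average of its probes, and the lipid receptor Trem2 one of -4.0001 ± 0.24, or -2.01 as the average of its probes. Granulocyte markers were lower in 3 of 4 tested (S100a8, S100a9 and Csf3r), of which S100a8 passed the dim filter only through the secondary samples (tertiary mean 3.77). The other tested marker, Camp, had a log2 fold change of -0.11 (adjusted p = 0.784 in limma's test). Mpo, Elane and Ngp had means below the dim filter in both groups. Markers of mature oligodendrocytes were lower in 2 of 7, Mog and Mag (median of the 7 -1.51; 4 of 7 without tertiary glioma 1). None of 3 lymphocyte, 8 endothelial and pericyte, 6 neuronal and 8 astrocyte markers passed limma's test. At an unadjusted p under 0.05 they numbered 0, 3, 0 and 2, where 3444 of all 14453 genes tested passed in either direction. Without tertiary glioma 1 limma's adjusted test called 1 endothelial and 2 astrocyte markers lower. Markers of oligodendrocyte precursors and proneural glioma were well above the dim filter in both groups, with mean log2 levels of 10.1 ± 0.23 (SD, secondary) and 10.3 ± 0.17 (SD, tertiary) and 0 of 11 called by limma and 1 at an unadjusted p under 0.05. In bulk RNA, fewer cells of a type and less RNA per cell cannot be told apart. Which cells made the marker RNA, glioma cells included, was not tested. Nor was the part of other cell types in the lysosomal results below.

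Lysosomal genes were lower in tertiary than in secondary gliomas. Of the 45 tested, 31 fell and 0 rose in limma's test at an adjusted p under 0.05, where 6.33% of all genes tested fell and 1.04% rose. At an unadjusted p under 0.05, which 3444 of all 14453 genes tested had in either direction, 39 of the 45 were lower and 0 higher. Their log2 fold changes had a median of -1.26, against 0.09 for all genes tested, and for 25 of the 31 the change was 1 log2 unit or more. In 38 of the 45 every tertiary sample lay below every secondary sample, against 11.2% of all genes tested. The 45 genes were above the dim filter in both groups, with a lowest group mean of 5.38 for Tfeb in tertiary gliomas. Removal of tertiary glioma 3 or 2 brought the count of 31 down to 20 or 21, and removal of tertiary glioma 1 raised it to 35. When each of the 7 samples was removed in turn, 19 genes kept the call throughout.

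**Figure D1:**
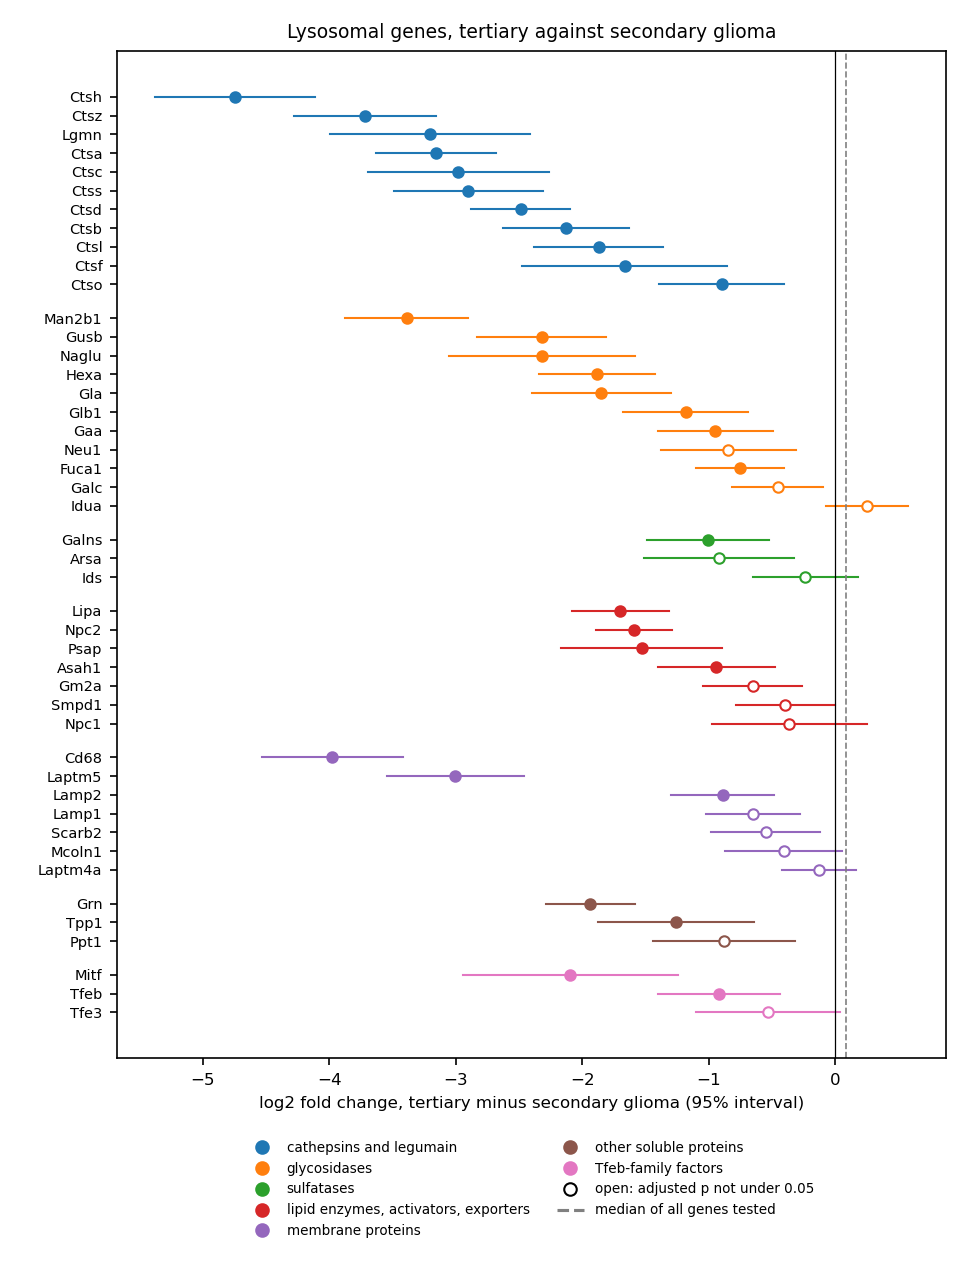
Log2 fold change of 45 lysosomal genes, tertiary minus secondary glioma, with 95% intervals from limma; the x axis is in log2 units and genes are grouped by role on the y axis. Filled points passed an adjusted p under 0.05, open points did not, and the dashed line is the median of all genes tested (0.09); 44 of the 45 points lie left of 0 and Idua lies right of it.

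The cathepsins fell as a whole role group. All 11 tested, legumain included, were lower, with a median log2 fold change of -2.90 and a range from -4.75 for Ctsh to -0.90 for Ctso. The mean log2 level of the 11 was 10.6 ± 0.27 (SD) in secondary and 7.92 ± 0.24 in tertiary gliomas. The median of the microglia and macrophage markers over the same contrast was -4.26. With single samples removed, 9 to 11 of the 11 were called.

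Ctsh, an aminopeptidase of the papain family, showed the largest fall of any lysosomal gene tested. Its log2 level was 9.94, 10.22, 10.57 and 10.05 in secondary gliomas 1 to 4 and 5.16, 6.09 and 5.10 in tertiary gliomas 1 to 3. The groups were 3.85 apart at their nearest samples, and the level was 26.8-fold lower in tertiary gliomas (log2 fold change -4.75 ± 0.27 SE, adjusted p = 8.02e-05). Both of its probes fell. Ctsz, a carboxypeptidase, was at 11.73, 11.93, 12.16 and 11.86 in secondary and at 8.13, 8.75 and 7.73 in tertiary gliomas. That is a log2 fold change of -3.72 ± 0.24 (adjusted p = 0.000102), with 3 of 3 probes lower, although the probe used can bind related transcripts.

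Legumain, Lgmn, cleaves after asparagine and processes other cathepsins to their mature chains. It stood at 8.84, 9.91, 10.41 and 9.70 in secondary and at 6.28, 6.74 and 6.50 in tertiary gliomas (log2 fold change -3.20 ± 0.34). Secondary glioma 1 was the lowest of its group, but still 2.10 above the highest tertiary sample. Ctsa, a serine carboxypeptidase that also protects beta-galactosidase and neuraminidase, fell from 11.06 ± 0.29 (SD) to 7.91 ± 0.27, a log2 fold change of -3.15 ± 0.20 (SE), and of -2.09 with its probes averaged. Ctsc, dipeptidyl peptidase, which activates granule proteases of leukocytes, was at 9.52, 9.76, 10.50 and 10.01 in secondary and at 6.57, 7.59 and 6.75 in tertiary gliomas (-2.98 ± 0.31).

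Ctss, an elastin-cleaving protease of antigen-presenting cells that trims the MHC class II invariant chain, was at 12.06, 12.25, 12.40 and 12.22 in secondary and at 9.73, 9.59 and 8.68 in tertiary gliomas. Tertiary glioma 3 had the lowest value, as it had for 7 of the 11 cathepsins. The broadly made cathepsins Ctsd and Ctsb had smaller falls on the probes used, a difference that was not tested. The aspartic protease Ctsd went from 12.35 ± 0.09 (SD) to 9.86 ± 0.31, a log2 fold change of -2.49 ± 0.17 (SE). The cysteine protease Ctsb went from 12.37 ± 0.08 to 10.24 ± 0.47 (-2.13 ± 0.22), with 5 of 5 Ctsb probes called lower. With its probes averaged Ctsb was at -2.71, so the size of its fall depends on the probe. Ctsl, a cysteine endopeptidase, had a log2 fold change of -1.87 ± 0.22, and 1 of its 2 probes was called.

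Ctsf and Ctso, both cysteine proteases, had the smallest falls of the 11. Ctsf was at 6.57, 7.38, 7.84 and 7.23 in secondary and at 6.09, 4.97 and 5.71 in tertiary gliomas (log2 fold change -1.66 ± 0.35, adjusted p = 0.0276), and at -0.82 with its probes averaged. Removal of any of secondary gliomas 2, 3 and 4 or tertiary gliomas 2 and 3 ended the Ctsf call, at adjusted p-values from 0.0631 to 0.0930. Ctso, which is found in most tissues, was at 8.17, 7.92, 8.42 and 8.05 in secondary and at 7.67, 6.89 and 7.16 in tertiary gliomas (-0.90 ± 0.21, adjusted p = 0.0465). Its nearest samples were 0.24 apart, and removal of any sample but tertiary glioma 1 ended the Ctso call (adjusted p from 0.0742 to 0.156). Settings that also ended it included no dim filter (0.0567), quantile normalization (0.0555), median centring (0.0506), trended and robust variances (0.0510) and averaged probes (log2 fold change -0.58, adjusted p = 0.0674).

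**Figure D2:**
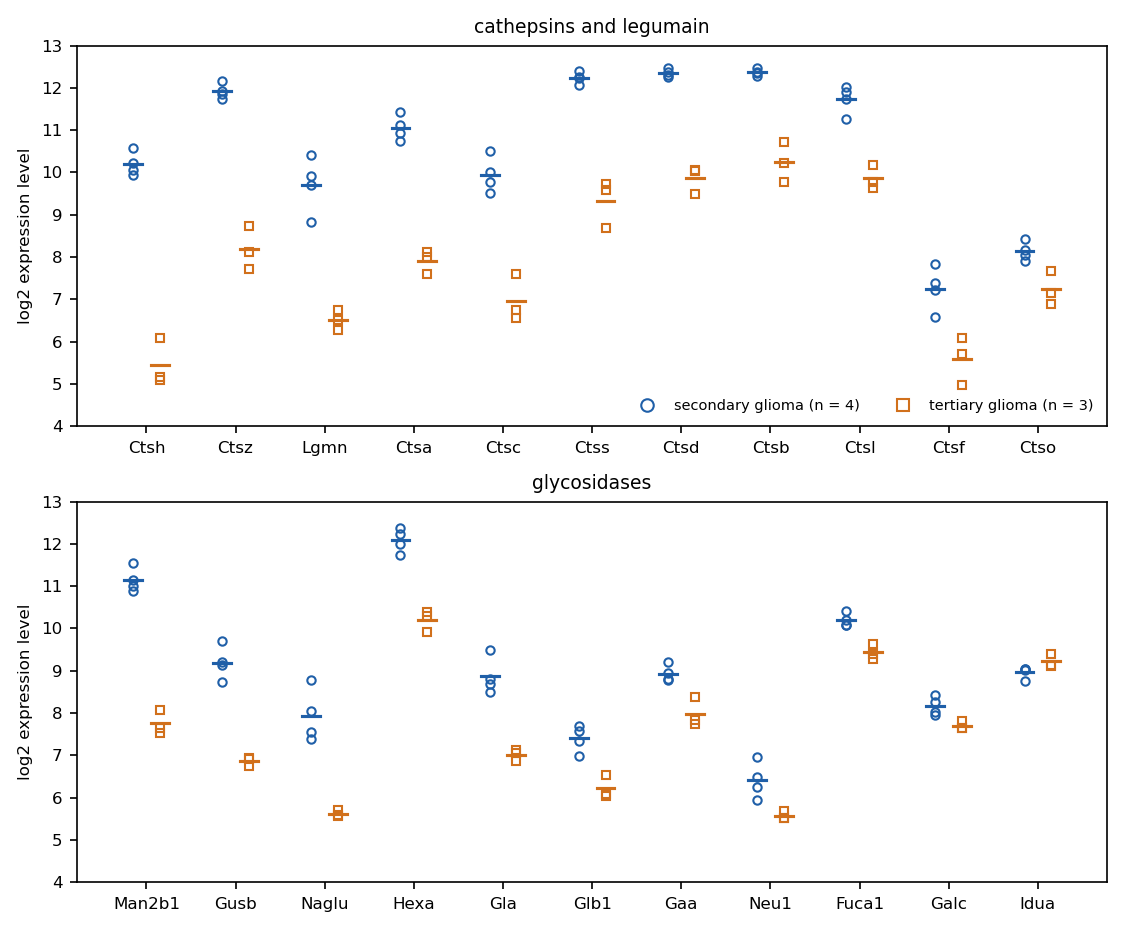
Log2 expression level of the tested cathepsins (upper) and glycosidases (lower) in each sample; circles are the 4 secondary gliomas, squares the 3 tertiary gliomas and bars the group means. All 11 cathepsins have every tertiary sample below every secondary sample, as do 10 of the 11 glycosidases, while Idua has them above; levels of different genes come from different probes and are not comparable.

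Most glycosidases fell. Of the 11, 8 were lower, with a median log2 fold change of -1.18 and a range from -3.39 for Man2b1 to 0.25 for Idua. The mean log2 level of the 11 was 9.03 ± 0.28 (SD) in secondary and 7.60 ± 0.07 in tertiary gliomas. Removal of tertiary glioma 3 left 5 of the 8 calls. Beside these falls stands the median of -4.26 for the microglia and macrophage markers.

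Man2b1, the lysosomal alpha-mannosidase of glycoprotein breakdown, had the largest fall of the 11 glycosidases. It was at 10.88, 11.15, 11.55 and 10.99 in secondary and at 8.08, 7.53 and 7.66 in tertiary gliomas. The level was 10.5-fold lower (log2 fold change -3.39 ± 0.21 SE, adjusted p = 9.15e-05), or -2.26 with its probes averaged. Gusb, the beta-glucuronidase of glycosaminoglycans, was at 9.13, 9.21, 9.69 and 8.74 in secondary and at 6.76, 6.92 and 6.94 in tertiary gliomas (-2.32 ± 0.22). Naglu, which removes N-acetylglucosamine from heparan sulfate, was at 7.38, 8.04, 8.78 and 7.55 in secondary and at 5.58, 5.58 and 5.70 in tertiary gliomas (-2.32 ± 0.32). For both, the tertiary samples lay close together while the secondary samples were spread, with secondary glioma 3 highest.

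Hexa, the alpha subunit of beta-hexosaminidase that degrades GM2 ganglioside, fell from 12.09 ± 0.28 (SD) to 10.20 ± 0.25, a log2 fold change of -1.89 ± 0.20 (SE). Gla, the alpha-galactosidase of globotriaosylceramide, was lower at -1.85 ± 0.24, or -0.92 with its probes averaged, of which 1 of 3 lay above the dim filter. Glb1, beta-galactosidase, was at 6.98, 7.59, 7.69 and 7.34 in secondary and at 6.03, 6.54 and 6.09 in tertiary gliomas (-1.18 ± 0.21, adjusted p = 0.0147). With tertiary glioma 3 removed its adjusted p was 0.0666. Gaa, the acid alpha-glucosidase of glycogen (-0.95 ± 0.20, adjusted p = 0.0266), and Fuca1, the alpha-fucosidase (-0.75 ± 0.15, adjusted p = 0.0224), completed the 8. Gaa lost its call when secondary glioma 2, 3 or 4 or tertiary glioma 2 or 3 was removed (adjusted p from 0.0531 to 0.106). Fuca1 lost its call when secondary glioma 2 or tertiary glioma 2 or 3 was removed (0.0657 to 0.0920).

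Of the 3 glycosidases that did not pass, Neu1, the sialidase, had a log2 fold change of -0.84 ± 0.23 (adjusted p = 0.0744) and Galc, the galactosylceramidase of myelin lipids, one of -0.45 ± 0.16 (adjusted p = 0.133). Without secondary glioma 4 Neu1 was called (adjusted p = 0.0458), and of its 3 probes above the dim filter 1 had the opposite sign. Idua, the iduronidase of dermatan and heparan sulfate, was the only tested lysosomal gene with a positive value. It was at 8.76, 9.05, 9.04 and 9.01 in secondary and at 9.15, 9.12 and 9.39 in tertiary gliomas (0.25 ± 0.14, adjusted p = 0.313). The groups did not overlap but were 0.07 apart. Its dimmer probe gave -1.12 (adjusted p = 0.00521), and the average of both gave -0.43 (adjusted p = 0.0899), so the direction of Idua depends on the probe.

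Of the 3 sulfatases, Galns, which acts on keratan and chondroitin sulfate, was lower (log2 fold change -1.004 ± 0.21 SE, adjusted p = 0.0270), with values of 7.19, 7.49, 7.16 and 7.20 in secondary and 6.71, 6.17 and 5.88 in tertiary gliomas. Galns kept its call only when tertiary glioma 1 was the sample removed; removal of any other gave adjusted p-values from 0.0557 to 0.106. With its probes averaged Galns was at -0.43 (adjusted p = 0.199). Arsa, the arylsulfatase of myelin sulfatide, was at -0.92 ± 0.26 (adjusted p = 0.0794, or 0.0174 without tertiary glioma 1). Ids, the iduronate sulfatase, was at -0.23 ± 0.18 with a 95% interval from -0.65 to 0.18, and its groups overlapped.

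Genes of lipid and cholesterol handling fell in part. Of 7, 4 were lower, with a median log2 fold change of -0.94. Lipa, the acid lipase of cholesteryl esters, was at 9.82, 9.85, 10.03 and 9.49 in secondary and at 8.23, 8.15 and 7.92 in tertiary gliomas (-1.70 ± 0.16 SE, adjusted p = 0.000545). Npc2, the soluble carrier that hands cholesterol to Npc1, was at 11.63, 11.79, 11.90 and 11.76 in secondary and at 10.26, 10.24 and 10.04 in tertiary gliomas (-1.59 ± 0.13, adjusted p = 0.000227). Its membrane partner Npc1, which exports the cholesterol, was at 9.84, 9.83, 9.88 and 9.70 in secondary and at 10.03, 8.81 and 9.51 in tertiary gliomas (-0.36 ± 0.26, 95% interval from -0.97 to 0.25). The tertiary samples of Npc1 lay on both sides of the secondary ones, whereas those of Npc2 all lay below; the difference between the partners was not tested.

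Psap, the precursor of the saposins that present sphingolipids to their hydrolases, was at 11.26, 11.47, 11.77 and 11.38 in secondary and at 10.49, 9.31 and 10.02 in tertiary gliomas (log2 fold change -1.53 ± 0.27 SE, adjusted p = 0.0142, or 0.0531 without tertiary glioma 3). Asah1, acid ceramidase, was lower at -0.94 ± 0.20 (adjusted p = 0.0294). Asah1 lost its call when secondary glioma 1, 2 or 3 or tertiary glioma 2 or 3 was removed (0.0533 to 0.113). Gm2a, the GM2 activator that works with Hexa, was at -0.65 ± 0.17 (adjusted p = 0.0634, or 0.0253 without tertiary glioma 1), and Smpd1, acid sphingomyelinase, at -0.39 ± 0.17 (adjusted p = 0.207). The count of 4 became 2 without tertiary glioma 3. In all 7 genes tertiary glioma 1 was the highest of its group.

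Membrane proteins ranged from -3.97 for Cd68 to -0.13 for Laptm4a, with 3 of 7 lower and a median log2 fold change of -0.65. Cd68, the mucin-like glycoprotein of macrophage lysosomes, and Laptm5, a transmembrane protein of haematopoietic cells, fell the most. Cd68 was at 10.34, 10.82, 11.10 and 10.52 in secondary and at 6.90, 6.98 and 6.29 in tertiary gliomas, 15.7-fold lower. Laptm5 was at 12.31, 12.25, 12.36 and 12.19 in secondary and at 9.67, 9.48 and 8.68 in tertiary gliomas (log2 fold change -3.003 ± 0.23 SE, adjusted p = 0.000184), and its other 2 probes above the filter gave -4.60 and -4.74. The ubiquitous relative Laptm4a was at 10.61, 10.50, 10.57 and 10.53 in secondary and at 10.60, 10.35 and 10.33 in tertiary gliomas, with a log2 fold change of -0.13 ± 0.13 (95% interval from -0.42 to 0.17). The microglia and macrophage markers, which include neither Cd68 nor Laptm5, had a median of -4.26.

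Lamp2, a main structural protein of the lysosomal membrane and receptor of chaperone-mediated autophagy, was the third membrane protein called. It was at 9.90, 9.85, 10.37 and 9.99 in secondary and at 8.92, 9.17 and 9.32 in tertiary gliomas (log2 fold change -0.89 ± 0.18 SE, adjusted p = 0.0216). Lamp2 lost its call when secondary glioma 4 (0.0579) or tertiary glioma 2 (0.0731) was removed. Lamp1, its close relative, was at 11.45, 11.61, 11.79 and 11.55 in secondary and at 11.19, 10.69 and 10.97 in tertiary gliomas. The groups did not overlap, and the log2 fold change was -0.65 ± 0.16 (adjusted p = 0.0522), or called at 0.0264 without tertiary glioma 1 and at 0.0267 with trended and robust variances. Scarb2, which carries beta-glucocerebrosidase to lysosomes, was at -0.55 ± 0.19 (adjusted p = 0.130), with its probes averaged at -0.75 (adjusted p = 0.0212). Mcoln1, the calcium channel that releases lysosomal calcium, was at -0.41 ± 0.20 (adjusted p = 0.259).

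Among the other soluble proteins, Grn, the precursor of the granulins that supports hydrolase activity, was at 11.99, 11.97, 12.20 and 11.98 in secondary and at 10.37, 9.98 and 9.95 in tertiary gliomas. Its log2 fold change was -1.93 ± 0.15 (SE, adjusted p = 0.000187), and its other probes gave -2.999 and -2.79. Tpp1, tripeptidyl peptidase, was lower at -1.26 ± 0.27 (adjusted p = 0.0292). Tpp1 lost its call when secondary glioma 2, 3 or 4 or tertiary glioma 2 or 3 was removed (0.0649 to 0.109), and with its probes averaged (0.0520). Ppt1, which strips palmitate from proteins, was at -0.88 ± 0.24 (adjusted p = 0.0748, or 0.00547 without tertiary glioma 1).

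Of the Tfeb-family factors, Mitf and Tfeb were lower and Tfe3 did not pass. Mitf was at 8.09, 8.71, 9.07 and 8.54 in secondary and at 7.38, 6.04 and 6.12 in tertiary gliomas, a log2 fold change of -2.09 ± 0.37 (SE, adjusted p = 0.0125). Tertiary glioma 1 was nearest to the secondary samples, 0.72 below the lowest of them. Removal of tertiary glioma 2 or 3 brought the adjusted p of Mitf to 0.0559 or 0.0590, and both of its probes fell. Tfeb was at 5.96, 6.30, 6.69 and 6.24 in secondary and at 5.68, 5.13 and 5.33 in tertiary gliomas (-0.92 ± 0.21, adjusted p = 0.0399). Tfeb lost its call when secondary glioma 2, 3 or 4 or tertiary glioma 2 or 3 was removed (0.0698 to 0.145) and with quantile normalization (0.0503). Tfe3 was at 8.17, 8.52, 9.02 and 8.30 in secondary and at 8.29, 8.01 and 7.62 in tertiary gliomas, where the groups overlapped (-0.53 ± 0.25, adjusted p = 0.238). The count of 2 was 0 without tertiary glioma 2 or 3. In all 3 factors secondary glioma 3 and tertiary glioma 1 were the highest of their groups.

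Tfeb-family factors bind E-boxes with the core CACGTG, which reads the same on both strands. Promoters were therefore searched for it in RefSeq windows of 300 bases in assembly GRCm38.p6, from 250 bases before the start of transcription to 50 after it. A promoter was listed for 42 of the 47 genes; Asah1, Ctsb, Ctsh, Galns and Npc1 are named only. CACGTG was present in 12 of the 42 (28.6%) against 8.09% of 27025 genes in the table, or 7.15% of 32851 windows. The longer form TCACGTGA, which contains that core, was present in 4 of the 42 (Ctsa, Ctsd, Gla and Mcoln1), against 1.12% of genes. The 12 are shown with the core nearest to the start in capitals and up to 12 bases on each side, 5′ to 3′ on the gene's strand, so that the bases around the core can be compared.
Arsa, chr15:89477423-89477452, minus strand: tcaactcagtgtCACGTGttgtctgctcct
Ctsa, chr2:164833766-164833795, plus strand: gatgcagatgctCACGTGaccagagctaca
Ctsd, chr7:142387908-142387937, minus strand: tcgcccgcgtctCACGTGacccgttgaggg
Ctsf, chr19:4855074-4855103, plus strand: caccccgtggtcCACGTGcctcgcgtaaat
Ctsl, chr13:64370739-64370768, minus strand: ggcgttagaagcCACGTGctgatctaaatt
Gaa, chr11:119267811-119267840, plus strand: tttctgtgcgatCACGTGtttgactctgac
Gla, chrX:134601182-134601211, minus strand: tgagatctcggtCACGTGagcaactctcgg
Glb1, chr9:114401018-114401047, plus strand: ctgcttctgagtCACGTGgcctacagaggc
Lamp1, chr8:13159134-13159163, plus strand: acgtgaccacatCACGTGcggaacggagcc
Lgmn, chr12:102439124-102439153, minus strand: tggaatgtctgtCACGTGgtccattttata
Mcoln1, chr8:3500462-3500491, plus strand: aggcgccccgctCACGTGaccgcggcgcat
Naglu, chr11:101070009-101070038, plus strand: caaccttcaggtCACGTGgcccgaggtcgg

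Promoters with the core belonged to genes that fell and to genes that did not pass. Of the 27 called genes with a listed promoter, 9 held CACGTG, among them Ctsd, Ctsa and Naglu. Of the 13 tested genes that were not called, 3 held it, namely Arsa, Lamp1 and Mcoln1. Lamp1 had 4 copies, the most of the 12, at a log2 fold change of -0.65 that did not pass, while Man2b1 and Cd68 had 0 at -3.39 and -3.97. None of the 8 windows of Tfeb, Tfe3 and Mitf themselves held the core. A match describes letters in a window and is no evidence of binding.

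Promoters of 6 genes are shown in full up to the start, 250 bases each, to set the genes with the lowest p among those with a listed promoter (Man2b1, Cd68 and Ctsa) beside those with the highest (Laptm4a, Ids and Idua). Capitals mark CACGTG and, on either strand, GAGGAA, the core bound by the myeloid factor PU.1, a motif chosen after the values were seen.
Cd68, chr11:69666171-69666420, minus strand: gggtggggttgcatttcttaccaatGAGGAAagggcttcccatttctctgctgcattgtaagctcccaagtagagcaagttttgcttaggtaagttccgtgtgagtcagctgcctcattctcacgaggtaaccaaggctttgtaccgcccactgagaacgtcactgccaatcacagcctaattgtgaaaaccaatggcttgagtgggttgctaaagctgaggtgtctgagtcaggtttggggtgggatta
Man2b1, chr8:85083019-85083268, plus strand: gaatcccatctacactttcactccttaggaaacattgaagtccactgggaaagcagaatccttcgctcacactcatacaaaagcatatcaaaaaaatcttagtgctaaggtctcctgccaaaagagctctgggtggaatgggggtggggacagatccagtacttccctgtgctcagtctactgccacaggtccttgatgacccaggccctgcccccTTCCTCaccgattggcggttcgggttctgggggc
Ctsa, chr2:164833523-164833772, plus strand: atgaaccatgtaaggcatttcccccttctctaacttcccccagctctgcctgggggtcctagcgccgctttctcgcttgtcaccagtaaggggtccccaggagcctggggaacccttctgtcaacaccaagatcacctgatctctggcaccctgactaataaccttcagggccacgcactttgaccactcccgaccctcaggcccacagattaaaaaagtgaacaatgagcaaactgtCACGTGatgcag
Idua, chr5:108660081-108660330, plus strand: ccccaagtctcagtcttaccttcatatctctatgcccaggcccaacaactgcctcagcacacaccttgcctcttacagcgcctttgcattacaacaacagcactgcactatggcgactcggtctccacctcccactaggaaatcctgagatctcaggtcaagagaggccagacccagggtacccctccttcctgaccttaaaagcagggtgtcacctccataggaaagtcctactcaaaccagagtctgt
Ids, chrX:70365086-70365335, minus strand: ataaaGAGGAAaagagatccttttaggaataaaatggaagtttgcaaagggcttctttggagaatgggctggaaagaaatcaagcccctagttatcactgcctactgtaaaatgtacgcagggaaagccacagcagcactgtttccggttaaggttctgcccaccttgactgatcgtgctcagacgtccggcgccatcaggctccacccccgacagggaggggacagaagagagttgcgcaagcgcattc
Laptm4a, chr12:8921057-8921306, plus strand: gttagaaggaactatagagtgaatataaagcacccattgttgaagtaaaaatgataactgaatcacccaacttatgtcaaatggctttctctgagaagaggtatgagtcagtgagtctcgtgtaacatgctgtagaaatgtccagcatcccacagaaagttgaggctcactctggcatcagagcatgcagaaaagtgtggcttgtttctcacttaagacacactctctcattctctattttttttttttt
GAGGAA was present in 18 of the 42 promoter sets (42.9%), against 31.25% of genes in the table, with 12 of the 27 called genes and 4 of the 13 not called. The longer GAGGAAGT was in 4 of the 42 (9.5%), namely Ctsc, Ctss, Gla and Gusb, against 3.69% of genes. Of the 27 called genes 4 held it, and of the 13 not called 0. A link between either motif and the falls was not tested.

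Within each group the lysosomal genes favoured the same samples. Secondary glioma 3 was the highest of the 4 secondary samples in 36 of the 45 genes (80.0%), against 29.8% of all genes tested, and secondary glioma 1 the lowest in 27. Among the 19 microglia and macrophage markers secondary glioma 3 was highest in 18 and secondary glioma 1 lowest in 17. In tertiary gliomas the orders differed between the sets. Tertiary glioma 1 was highest in 32 of the 45 lysosomal genes (71.1%, against 39.3% of all genes tested), whereas tertiary glioma 2 was highest in 14 of the 19 markers. The cathepsins were shared between tertiary glioma 2, highest in 6 of 11, and tertiary glioma 1, highest in 5. All 7 lipid genes, all 3 sulfatases, all 3 other soluble proteins and all 3 Tfeb-family factors were highest in tertiary glioma 1. Among tertiary samples it also had the highest mean level of the astrocyte markers (7.83 against 6.66 and 6.74 in tertiary gliomas 2 and 3) and neuronal markers (6.88 against 6.33 and 6.28). The same held for mature oligodendrocyte markers (7.34 against 7.08 and 7.08) and endothelial and pericyte markers (4.97 against 4.74 and 4.69). Markers of oligodendrocyte precursors and proneural glioma were highest there too (10.39 against 10.06 and 10.31). Single genes of these lists went the other way, among them Gfap, Mog, Cldn11 and Kdr, which were lowest in tertiary glioma 1. The part of these cell types in the order was not tested.

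**Figure D3:**
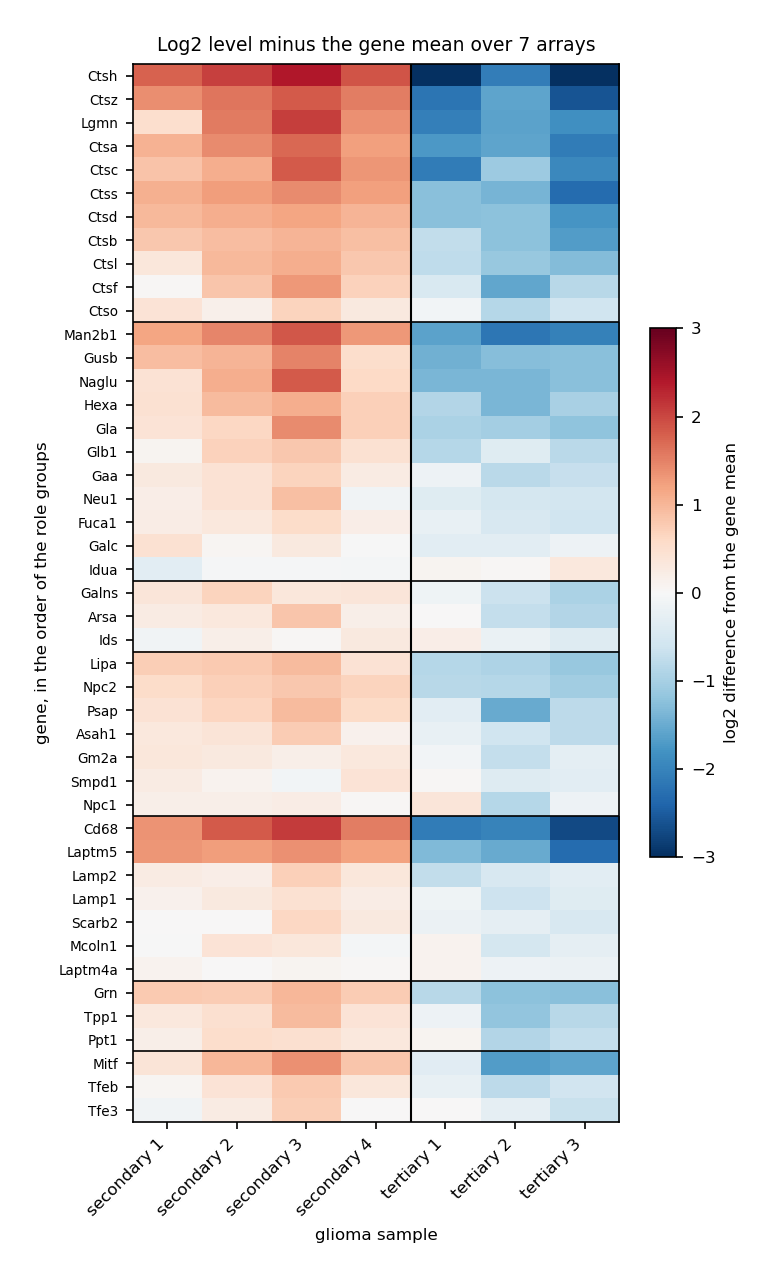
Log2 level of 45 lysosomal genes (y axis, by role) in each of 7 samples (x axis), drawn as the difference from the gene's mean over the 7 arrays; red is above and blue below, and the colours end at 3 and -3. Secondary glioma 3 is the reddest column, highest of its group in 36 of 45 genes, and tertiary glioma 1 is the palest of the tertiary columns, highest of its group in 32 of 45.

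Other genes of the lysosomal system were taken from 7 further lists, in which no gene was called higher. Of the cystatin family, the inhibitors of cysteine cathepsins, 3 of 4 were lower. Cst7, cystatin F of immune cells, was at 10.11, 10.14, 10.41 and 10.48 in secondary and at 6.02, 6.64 and 5.63 in tertiary gliomas (log2 fold change -4.19 ± 0.24 SE, adjusted p = 8.02e-05). The secreted cystatin Cst3 was lower at -2.11 ± 0.23 and the cytosolic inhibitor Cstb at -0.73 ± 0.14, and Cstb lost its call when secondary glioma 2 (0.0607) or tertiary glioma 3 (0.0724) was removed. Of 14 further hydrolases tested, 4 were lower: the phospholipase Pla2g15 (-3.05 ± 0.24), the tartrate-resistant phosphatase Acp5 (-3.33 ± 0.37), the phospholipase B-like Plbd2 (-1.28 ± 0.16) and the beta-mannosidase Manba (-2.12 ± 0.33). Averaged over its probes, Plbd2 was at -0.68 (adjusted p = 0.0550). Of 13 further membrane proteins 1 was lower (7.69%, near the 6.33% of all genes tested), Slc11a1, the metal transporter of phagosomes, at -4.11 ± 0.30.

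Of 17 subunits and accessory proteins of the vacuolar ATPase, the proton pump that acidifies lysosomes, 3 were lower (median log2 fold change -0.30). Atp6v0d2, the subunit form of osteoclasts and macrophages, was at 7.90, 8.79, 6.71 and 7.88 in secondary and at 3.21, 3.21 and 2.80 in tertiary gliomas. Its tertiary values lay below the dim filter, which it passed only through the secondary samples, so the log2 fold change of -4.74 ± 0.43 (SE), or -3.92 as the average of its probes, is set against a level near background. Its widely made counterpart Atp6v0d1 was at -0.30 ± 0.14 (adjusted p = 0.241). Atp6ap1 (-1.01 ± 0.18) and Atp6v1c1 (-0.78 ± 0.15) were lower too, but both lost the call when tertiary glioma 2 (0.0634 for Atp6ap1 and 0.0731 for Atp6v1c1) or tertiary glioma 3 (0.0570 and 0.0635) was removed, which left 1 of the 3. Of 14 genes of sorting and modification, 2 were lower, the mannose 6-phosphate receptor M6pr (-0.87 ± 0.15) and the uncovering enzyme Nagpa (-1.12 ± 0.19). With tertiary glioma 3 removed neither M6pr nor Nagpa passed (adjusted p = 0.0563 and 0.0511), and Nagpa averaged over its probes was at -0.54 (adjusted p = 0.0697).

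Genes that regulate Tfeb-family factors and autophagy did not pass. Of 16 genes of the Ragulator, Rag and folliculin group, limma called 0, with a median log2 fold change of -0.06. At an unadjusted p under 0.05, 3 were lower and 1 higher, beside 3444 of all 14453 genes tested in either direction. Folliculin, Flcn, which controls the nuclear entry of Tfeb and Tfe3, was at -1.03 ± 0.26 (SE, adjusted p = 0.0545, or 0.0326 without tertiary glioma 1), and its partner Fnip2 at -1.03 ± 0.25 (adjusted p = 0.0516, or 0.0373 without secondary glioma 1). With either of those samples removed, the count of called genes in this group was 2. Flcn and Fnip2 each passed in only 1 of the 7 fits leaving out 1 sample, and not in the same one. Each count therefore included another gene of the group. The fourth family member, Tfec, lay below the dim filter, with values between 2.90 and 4.43. Of 17 autophagy genes limma called 0, with 1 lower and 1 higher at an unadjusted p under 0.05 and a median of -0.02. The autophagosome protein Gabarap was at -0.52 ± 0.15 (adjusted p = 0.0869, or 0.0424 without tertiary glioma 1) and Becn1, of the kinase complex that starts autophagosomes, at 0.47 ± 0.15 (adjusted p = 0.117).

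**Figure D4:**
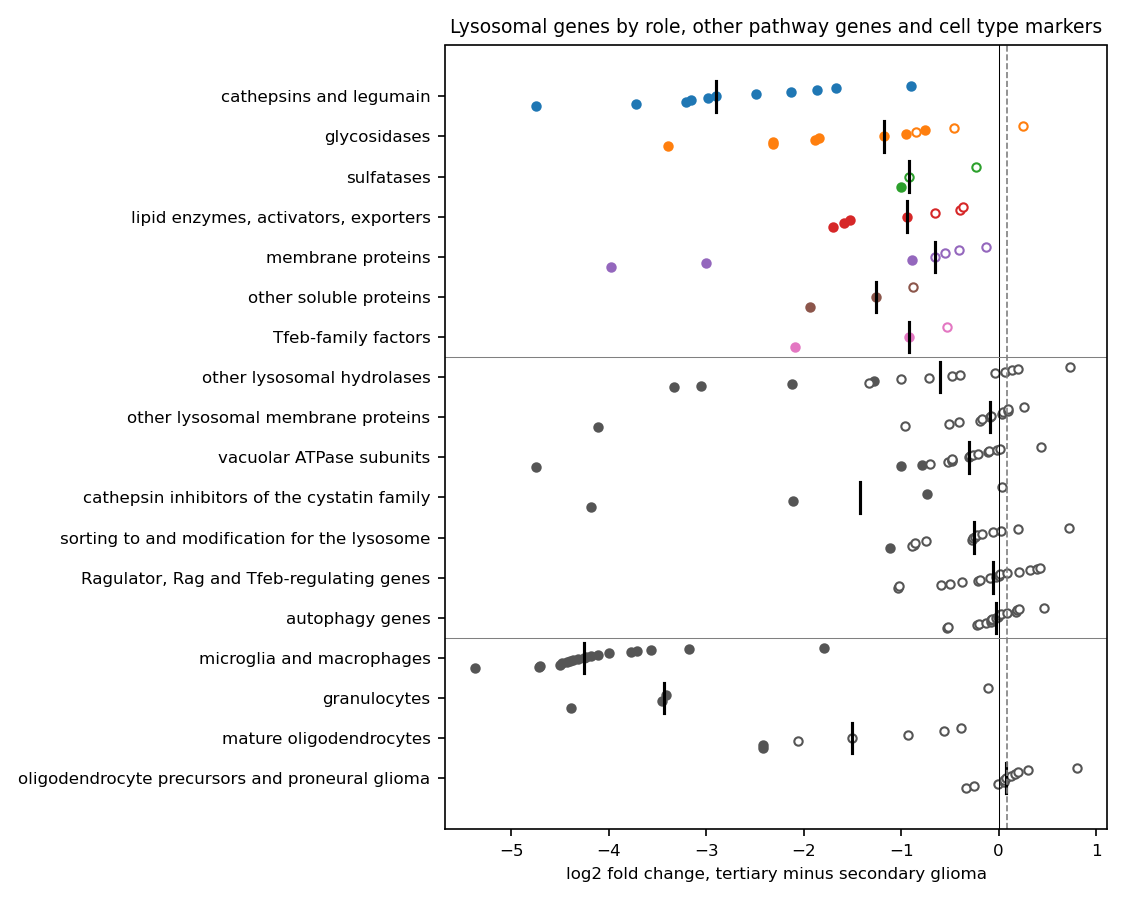
Log2 fold change, tertiary minus secondary glioma, of each gene tested in the lysosomal role groups (coloured), other pathway lists and cell type markers (grey); filled points passed an adjusted p under 0.05, black bars are list medians, the dashed line is the median of all genes tested and the height of a point within its row carries no value. The cathepsin median of -2.90 is the lowest of the lysosomal role groups, and the autophagy median of -0.02 lies near 0. Medians of the marker lists drawn are -4.26 (microglia and macrophages), -3.43 (granulocytes), -1.51 (mature oligodendrocytes) and 0.07 (oligodendrocyte precursors and proneural glioma). Lymphocyte, endothelial and pericyte, neuronal and astrocyte markers are not drawn.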

How the data were processed

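RNA of 7 samples was measured on Affymetrix mouse arrays. Per the submitters' processing notes the authors used RMA, a background correction, quantile normalization and probe summary; no version is named. The deposited values are on a log2 scale, judged from their range. RMA equalises arrays and compresses dim differences. Array medians lay between 5.57 and 5.64; the number of arrays limits precision. No scan dates or detection calls were used here, so no batch was tested.

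Of 45101 probes, 34945 had 1 symbol in the platform annotation, 932 several and 9160 none listed; the rest were controls. Genes whose probe mean lay below the 25th percentile (log2 3.99) were left out. Tertiary and secondary gliomas were compared with limma 3.58.1 in R 4.3.3, adjusted by Benjamini-Hochberg over 14453 genes, threshold 0.05. Steps were tested on simulated data. Alternatives covered probe choice, filter, scaling, variances, array weights, replicate numbers and left-out samples. Averages of all probes of a gene took in probes below the dim filter. Above it lay 1 of 3 probes for Gla and 1 of 2 each for Ctsf, Ctso, Galns and Nagpa. The 7 tested genes with _s or _x probes (Ctsz, Lipa, Lamp2, Mcoln1, Fuca1, Laptm5, Grn) may read related transcripts. Genes and lists were chosen with earlier results of these data known. All 47 listed genes are accounted for. Of each other pathway list, up to 4 called genes with the lowest p are named, or 2 where none was called, and of the microglia and macrophage markers the 4 with the lowest p. Atp6v0d1, Itgam, Adgre1, S100a8, S100a9, Csf3r, Camp, Mpo, Elane, Ngp, Mog, Mag, Cldn11, Gfap, Kdr and Ctse were named after their values were seen. Promoters came from RefSeq.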

Additional observations from a re-analysis of the deposited data

Results flagged for a closer look

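In 4 of 67 genes checked, 1 secondary glioma lay far from the other 3, by the gap to its nearest neighbour over the range of the group; chance gives about 1 such group in 20. Idua was at 8.76 in secondary glioma 1, against 9.01 to 9.05 in the others. Galns was at 7.49 in secondary glioma 2, against 7.16 to 7.20. Grn was at 12.20 in secondary glioma 3, against 11.97 to 11.99, and this is the sample in which lysosomal genes and microglia markers were highest. Becn1 was at 8.23 in secondary glioma 1, against 8.55 to 8.62.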

How the results depend on the processing

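Of 765 refits of the 45 genes, 675 kept direction and side of the threshold, 67 lost a call, 22 gained a call and 1 reversed (Idua, -0.43 with all probes averaged). Single probes reversed Idua (-1.12), Ids (0.020) and Neu1 (0.067), none called before. With all probes of Ctse averaged its log2 fold change was -1.05 (limma's adjusted p = 0.00429), the reverse of 0.73 on its brighter probe. That average took in a dimmer probe that passed the dim filter through the secondary samples. The 31 falls became 19 with the replicate block, and the genes called became 636; glycosidases were 5, lipid genes 2 and Tfeb-family factors 0, and the Ctso call was lost with the block (adjusted p = 0.105). Secondary glioma 4 has no same-numbered tertiary sample, so the block left it out of the contrast. With that sample alone removed, 25 lysosomal genes were called lower and 786 genes were called in all. The labels do not say whether the shared numbers pair the samples. Same-numbered samples correlated at 0.04, -0.14 and 0.01 in their deviations, and no sample matched its own number best. With 4 and 3 samples these correlations cannot decide whether samples share an origin. Genes called were 1933 with array weights and 1622 at an adjusted p under 0.10, against 1066. Membrane proteins called lower were 5 with all probes averaged, and Tfeb-family factors 1 with quantile normalization. Leaving out single samples gave 647 to 1857 genes called, 20 to 35 lysosomal genes, 9 to 11 cathepsins, 5 to 8 glycosidases, 2 to 5 lipid genes, 2 to 4 membrane proteins, 0 to 2 Tfeb-family factors and a median log2 fold change between -1.54 and -1.12; without both secondary glioma 3 and tertiary glioma 1, 34 lysosomal and 1549 genes were called. The cause was not tested. Scaling moved the median of all genes by at most 0.04. No setting called a lysosomal gene higher.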

Other observations

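Ctse, an aspartic protease related to Ctsd, had probes that moved in opposite directions; it was singled out after its values were seen. The brighter probe, whose type may also detect similar transcripts, was at 12.05, 12.67, 11.37 and 12.69 in secondary and at 12.87, 12.93 and 12.98 in tertiary gliomas, where the groups did not overlap (log2 fold change 0.73 ± 0.32 SE, adjusted p = 0.212). The dimmer probe was at 6.52, 6.54, 7.01 and 6.08 in secondary and at 3.44, 4.13 and 3.55 in tertiary gliomas, all below the secondary ones. Of its tertiary values 2 of 3 lay below the dim filter of 3.99, which the probe passed through the secondary samples, so no fold is given. Secondary glioma 3 was the lowest secondary sample on the first probe and the highest on the second.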
